A study of Mus musculus with 60 samples.

Results

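The genes described here are 38 genes of the endoplasmic reticulum that fold secreted and membrane proteins, bring new chains into the organelle, or remove chains that fail to fold. They were chosen by name: a member was any gene whose array annotation gave exactly one of the 38 symbols, and all 38 were found among the 18193 named genes of the 2 array types. By role they comprised 3 genes of stress sensing and its transcription factor (Ern1, Atf6, Xbp1), 11 chaperones and cochaperones, 8 disulfide enzymes, 9 degradation genes, 5 translocation genes and 2 others (Nucb2, Ufm1). Their transcripts were read in 6 strains of mouse embryonal carcinoma, the stem cells of teratocarcinomas, all tracing to a male C3H embryo and all kept undifferentiated. The strains were P19, P19CL6 derived from it, and, derived from P19CL6 in turn, the 4 sublines CL6G26, CL6G36, CL6G45 and CL6G52. Beating cardiac muscle forms readily from P19CL6 under differentiating conditions, which were not used here. No strain carried a stated transgene, deletion or drug treatment, and all were grown in the same serum-containing medium. The labels name 5 biological replicates per strain, without saying whether these were separate cultures, passages or clones, so the p-values refer to the spread among these samples, which may be technical in part.

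The lumen of the endoplasmic reticulum holds chaperones of the heat shock families, lectin chaperones that read sugar chains, and oxidases and isomerases that form and reshuffle disulfide bonds. Chains that stay misfolded are pulled back through the membrane, tagged with ubiquitin and degraded. When unfolded chains build up, sensors in the membrane respond: IRE1, the product of Ern1, splices the Xbp1 transcript so that it encodes an active transcription factor, ATF6 is cut to release another, and PERK slows translation and raises ATF4 and CHOP (Ddit3). XBP1 and ATF6 are known to raise many of the members through short promoter motifs. The arrays read the total signal of each gene, and neither Xbp1 splicing, protein nor cleavage of ATF6 was measured here.

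All 38 members had a probe set that passed the filter on low signal, and 35 lay above the background floor on all 30 arrays of their type. The exceptions were Ero1b on 23 arrays, Nucb2 on 18 and Sil1 on 7. A gene was read from its brightest probe set, which was on MOE430A for every member but Ern1. Levels are given as quantile-normalized log2 signal, on which the floor of MOE430A was 4.61 and that of MOE430B 4.14, and a difference of 1 is a 2-fold change; levels of different genes are not comparable. A member was called where the adjusted p of limma was under 0.05. The median signal of an array was 30.2 to 53.4 for MOE430A and 10.6 to 16.5 for MOE430B, and precision is limited by how many arrays there were. Of 10 markers of pluripotent embryonal carcinoma cells, 9 lay above the floor on every array of every strain. The summed signal of 8 tested endoderm markers, out of 15 listed, was 1730 to 2180 in P19CL6, 1810 to 1970 in CL6G36 and 1390 to 1460 in CL6G45; fibroblast, neural and cardiac lists had 3 of 7, 3 of 6 and 2 of 6 genes tested, at sums of at most 206. The log2 difference between the 3′ and 5′ control probe sets of Gapdh, a sign of RNA quality, was between -0.36 and -0.07 on all MOE430A arrays, with P19 (-0.14 to -0.07) above P19CL6 (-0.26 to -0.17).

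Several arrays stood apart from others of their label. CL6G52 replicate 1 lay among the CL6G45 arrays: on the first principal component of MOE430A it was at 22.3, against 19.4 to 22.5 for CL6G45 and -5.13 to -3.43 for CL6G52 replicates 2 to 5. Its MOE430B array also lay apart, at -15.1 against -1.06 to 2.32 for the other 4. There it was just outside the CL6G45 range of -22.1 to -16.5. For 25 of the 38 members its level was nearer the CL6G45 mean than that of CL6G52 replicates 2 to 5, as for 59.8% of all genes tested. P19 replicates 4 and 5 (-13.6 and -12.2) lay beside P19CL6 (-13.8 to -1.69) rather than P19 replicates 1 to 3 (-50.2 to -45.7), and were nearer the P19CL6 mean for 26 and 33 members, as for 67.0% and 65.8% of all genes. On MOE430A, P19CL6 replicates 1 and 2 (-3.81 and -1.69) lay apart from replicates 3 to 5 (-13.8 to -11.6) and beside CL6G26 (-6.24 to -1.83). On MOE430B, P19CL6 replicate 1 (6.79) lay within the range of replicates 3 to 5 (4.49 to 10.1), and replicate 2 (1.66) lay below it. Whether the labels of CL6G52 replicate 1 and of P19 replicates 4 and 5 are right was not tested; the arrays were kept in the groups their labels give. Counts of called members in comparisons that involve the arrays that lay apart are given with and without them. Members whose call against P19CL6 or P19 changed are named. Other counts use all arrays unless stated: those by role, of 2-fold changes, of arrays without overlap, of calls shared by sublines, of probe sets, of motifs and of other genes.

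In CL6G36, 27 of the 38 members rose against P19CL6 and none fell, where 13.5% of all 13181 genes tested were called, 6.83% higher and 6.72% lower. The median difference of the members was 0.62, against 0.00 for all genes. In CL6G45, 23 members rose and 1, Sil1, fell, where 13.3% of all genes were called, 6.55% higher and 6.71% lower; the median was 0.49 against 0.00. CL6G52 had 10 members that rose and none that fell, where 3.18% of all genes were called, 1.38% higher and 1.8% lower, with a median of 0.16 against -0.01. In CL6G26 there were 8 that rose and none that fell, where 1.24% were called, 0.417% higher and 0.827% lower, with a median of 0.19 against -0.01. Changes of at least 2-fold were found in 9 members in CL6G36 (1.46% of all genes in either direction), in 8 higher and 1 lower in CL6G45 (1.38%), in 1 in CL6G52 (0.501%) and in none in CL6G26 (0.258%). Members whose 5 arrays all lay above the 5 of P19CL6 numbered 26 in CL6G36 (6.49% of all genes), 24 in CL6G45 (6.99%), 7 in CL6G52 (2.34%) and 9 in CL6G26 (1.67%). These comparisons share the 5 P19CL6 arrays. In cultured cells measured in bulk, less RNA per cell and fewer cells carrying it cannot be told apart.

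With the 2 P19CL6 replicates that lay apart left out, 26 members rose in CL6G36 (11.7% of all genes called, 5.92% higher) and 22 in CL6G45 (11.8%, 5.88% higher). In CL6G52 11 rose (2.69%, 1.18% higher), and in CL6G26 7 rose (1.54%, 0.478% higher). Without CL6G52 replicate 1, 8 rose in CL6G52, with 4.89% of all genes called, 1.91% higher. On the signals as deposited, without quantile normalization, 16 members rose in CL6G36 (2.50% of all genes called in either direction), 17 in CL6G45 (2.92%), 3 in CL6G52 (1.30%) and 4 in CL6G26 (0.258%). On that scale the median of all genes itself lay at 0.12 in CL6G45, 0.11 in CL6G52 and 0.13 in CL6G26.

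**Figure D1:**
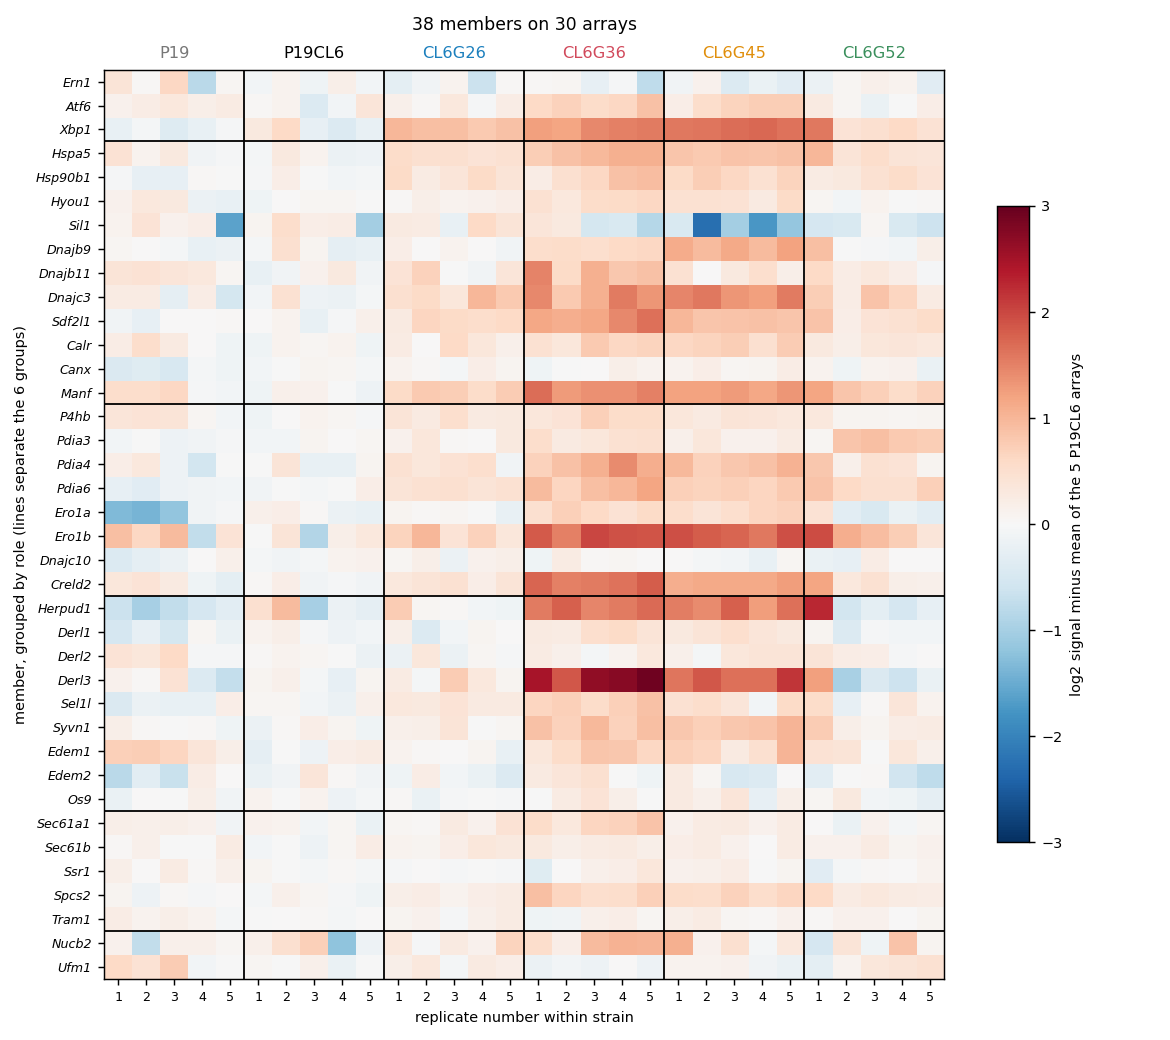
Each row is 1 member and each column 1 array, with colour for its log2 signal minus the mean of the 5 P19CL6 arrays; horizontal lines separate the roles and vertical lines the strains. CL6G36, CL6G45 and CL6G52 replicate 1 are the columns with most red, and Ero1a is blue in P19 replicates 1 to 3.

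In all 4 sublines 6 members rose: Xbp1, the BiP gene Hspa5, the GRP94 gene Hsp90b1, Sdf2l1, Manf and Pdia6. Another 12 rose in CL6G36 and CL6G45 and were called in neither CL6G26 nor CL6G52. Among all 13181 genes tested, members included, 10 (0.0759%) rose in all 4 and 407 (3.09%) had the second pattern. The 4 comparisons share the 5 P19CL6 arrays, so these calls are not independent. Members that rose in none were 11, where 89.6% of all genes rose in none: Ern1, Sil1, Canx, Dnajc10, Derl2, Edem2, Os9, Ssr1, Tram1, Nucb2 and Ufm1. The 38 members had 91 tested probe sets, of which 55 rose and none fell in CL6G36, 44 rose and 1 fell in CL6G45, 17 rose in CL6G52 and 14 in CL6G26. Of all 27199 probe sets tested, 5.56% rose and 5.46% fell in CL6G36, 5.07% and 5.38% in CL6G45, 1.35% and 1.38% in CL6G52, and 0.379% and 0.658% in CL6G26. A count that required every tested probe set of a member to be called was smaller, at 17 members in CL6G36, 4 in CL6G52 and 4 in CL6G26. The share of all genes that met this rule is not given here, so these counts are not set against it.

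Promoter motifs known from the unfolded protein response were looked for in the RefSeq table of promoters (GRCm38.p6, 250 bases before to 50 after each start), which held 31 of the 38 members. On both strands the searches were for ERSE (CCAAT and, after any 9 bases, CCACG), ERSE-II (ATTGG and, after any base, CCACG), UPRE (TGACGTGG) and the ATF4 site CARE (TGATGCAA); ERSE and ERSE-II share the letters CCACG. ERSE was in 10 of 31 members, that is 32.3%: Hspa5, Hsp90b1, Dnajc3, Calr, Canx, Pdia6, Ero1b, Creld2, Derl3 and Syvn1. Of all 32851 promoters in the table, 39 held it, that is 0.119%. ERSE-II was in Dnajb11 and Herpud1, against 0.0365% of all promoters, CARE in Herpud1 alone, against 0.895%, and UPRE in no member, against 0.676%. None of 86 matched genes of the wider pathway held ERSE, and 1 held ERSE-II. UPRE was in 6 of these 86 genes (Txndc5, Txndc11, Vcp, Ube2j1, Kdelr3 and Sec24d), and CARE was in 1, Cnpy2. Members were picked as known genes of this response, so the shares are a description. A match is a stretch of letters, not shown here to be bound.

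The promoters printed are those of the 5 members with the largest differences in CL6G36 that the table held, with Hspa5 added as the best known target after its values were seen. Capitals mark the fixed letters of a match, and each runs 5′ to 3′ on the strand of the gene.
Derl3, chr10:75893148-75893447, plus strand: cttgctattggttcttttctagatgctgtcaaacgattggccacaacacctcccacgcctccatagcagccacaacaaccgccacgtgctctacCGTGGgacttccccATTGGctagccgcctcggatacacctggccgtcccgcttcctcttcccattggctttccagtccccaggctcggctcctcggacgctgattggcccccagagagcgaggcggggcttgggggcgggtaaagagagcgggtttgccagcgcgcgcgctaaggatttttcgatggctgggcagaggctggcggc
Ero1b, chr13:12565633-12565932, plus strand: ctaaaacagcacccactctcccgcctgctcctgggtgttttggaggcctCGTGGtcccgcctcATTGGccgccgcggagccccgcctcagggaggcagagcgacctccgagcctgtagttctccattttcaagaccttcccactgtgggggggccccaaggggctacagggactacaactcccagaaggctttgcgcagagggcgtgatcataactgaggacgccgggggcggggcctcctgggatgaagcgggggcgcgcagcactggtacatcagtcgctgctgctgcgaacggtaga
Creld2, chr15:88819396-88819695, plus strand: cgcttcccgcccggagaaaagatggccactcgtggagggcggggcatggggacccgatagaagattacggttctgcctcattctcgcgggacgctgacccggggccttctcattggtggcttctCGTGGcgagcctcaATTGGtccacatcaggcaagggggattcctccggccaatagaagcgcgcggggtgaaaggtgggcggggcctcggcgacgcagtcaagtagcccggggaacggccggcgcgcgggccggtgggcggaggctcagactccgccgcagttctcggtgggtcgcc
Herpud1, chr8:94386179-94386478, plus strand: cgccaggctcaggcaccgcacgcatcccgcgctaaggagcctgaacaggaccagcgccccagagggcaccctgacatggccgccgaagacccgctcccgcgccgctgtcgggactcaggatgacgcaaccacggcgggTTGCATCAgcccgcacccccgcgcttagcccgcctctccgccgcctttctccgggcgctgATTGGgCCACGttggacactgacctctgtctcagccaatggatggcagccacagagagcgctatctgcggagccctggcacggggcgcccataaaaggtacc
Xbp1, chr11:5520391-5520690, plus strand: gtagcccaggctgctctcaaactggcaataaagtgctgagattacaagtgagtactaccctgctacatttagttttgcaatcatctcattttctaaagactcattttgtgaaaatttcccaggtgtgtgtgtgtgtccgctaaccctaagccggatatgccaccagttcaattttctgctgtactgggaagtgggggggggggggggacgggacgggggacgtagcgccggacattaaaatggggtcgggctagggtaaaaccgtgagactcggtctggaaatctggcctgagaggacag
Hspa5, chr2:34771840-34772139, plus strand: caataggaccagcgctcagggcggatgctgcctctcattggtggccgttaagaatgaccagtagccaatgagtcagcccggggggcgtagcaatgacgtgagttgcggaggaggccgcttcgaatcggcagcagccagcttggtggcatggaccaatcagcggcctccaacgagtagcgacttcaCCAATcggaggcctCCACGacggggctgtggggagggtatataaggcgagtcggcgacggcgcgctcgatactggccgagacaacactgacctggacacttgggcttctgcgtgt
Derl3, Ero1b and Creld2 held 1 ERSE each, read on the minus strand, and Hspa5 held 1 on the plus strand, from base -65 to base -47 of the start. Herpud1 held ERSE-II from -52 to -42 and CARE from -112 to -105. Xbp1 held none of the motifs spelled out above in this window. Of the 12 matched members with ERSE or ERSE-II, 11 rose in CL6G36, with a median difference of 0.96, and Canx (0.03) was not called; of the 19 without either, 11 rose, with a median of 0.52. In CL6G45 the counts were 10 of 12 (median 0.84) and 9 of 19 (0.33), in CL6G52 5 of 12 (0.34) and 4 of 19 (0.15), and in CL6G26 4 of 12 (0.31) and 3 of 19 (0.16). The difference between the groups of members was not tested.

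**Figure D2:**
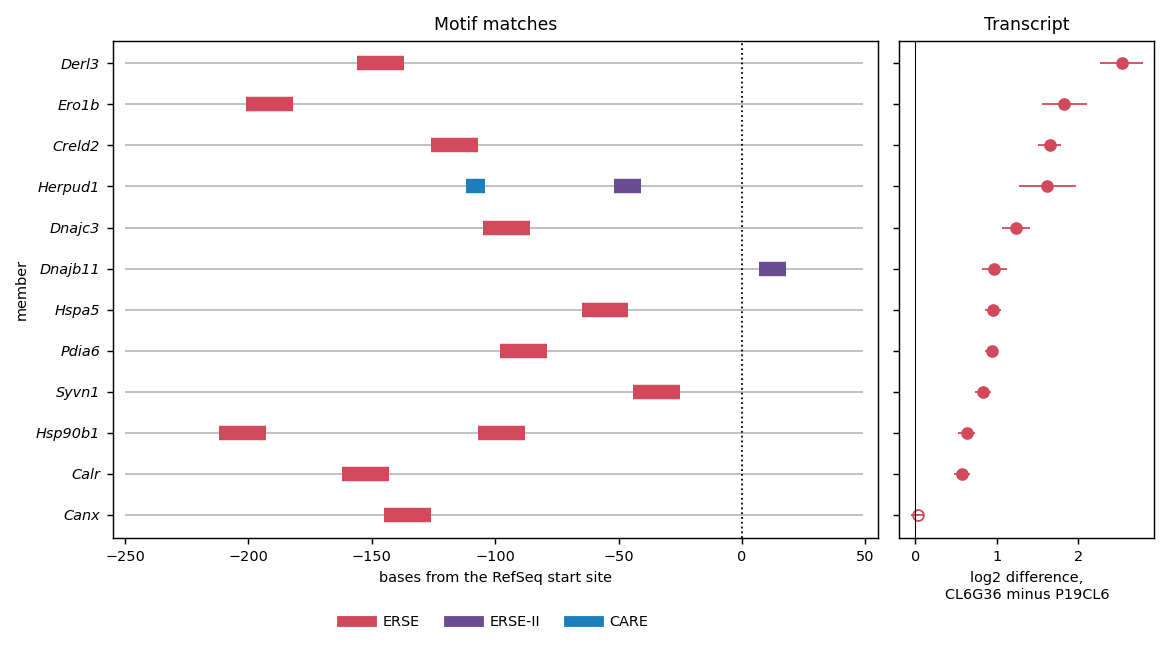
Left, positions of ERSE, ERSE-II and CARE matches in bases from the RefSeq start for the 12 members with a match; right, log2 difference of CL6G36 from P19CL6 with its SE, filled where adjusted p was under 0.05. Canx, with an ERSE, sits at 0.03, and Derl3, also with 1, at 2.53.

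Among the sensing genes, Xbp1 rose in every subline while Ern1, which encodes the enzyme that splices it, was called in none. In P19CL6 the Xbp1 levels were 9.17, 9.48, 8.65, 8.48 and 8.66. CL6G26 had 9.88, 9.78, 9.78, 9.68 and 9.76, and CL6G36 had 10.12, 10.07, 10.32, 10.39 and 10.44. CL6G45 had 10.48, 10.49, 10.56, 10.60 and 10.51, and CL6G52 had 10.47, 9.30, 9.37, 9.49 and 9.31. The arrays of CL6G26, CL6G36 and CL6G45 all lay above those of P19CL6, while CL6G52 replicates 2 to 5 overlapped P19CL6 replicate 2 and its replicate 1 sat with CL6G45. The limma difference was 0.89 ± 0.16 (SE, adjusted p = 0.00136) in CL6G26, 1.38 ± 0.16 (2.7e-07) in CL6G36, 1.64 ± 0.16 (2.81e-08) in CL6G45 and 0.70 ± 0.16 (0.0094) in CL6G52. Without CL6G52 replicate 1 the last was 0.48 ± 0.13, with an adjusted p of 0.0178. P19 had 8.67, 8.83, 8.49, 8.67 and 8.86, within the range of P19CL6. Of its other 3 probe sets, Xbp1 had 2 that rose in all 4 sublines and 1 that was called in CL6G45 alone.

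Ern1 lay at 5.73 ± 0.14 (SD, n = 5) in P19CL6, with arrays at 5.65, 5.84, 5.60, 5.90 and 5.64. Its means were 5.55 ± 0.30 in CL6G26, 5.54 ± 0.33 in CL6G36, 5.54 ± 0.21 in CL6G45, 5.68 ± 0.22 in CL6G52 and 5.78 ± 0.54 in P19, and the arrays of every strain overlapped those of P19CL6. Atf6, the membrane-bound transcription factor, had 5.44, 5.53, 5.00, 5.33 and 5.77 in P19CL6 and 6.01, 6.10, 5.97, 6.04 and 6.30 in CL6G36, with no overlap. Its rise was 0.67 ± 0.13 in CL6G36 (limma adjusted p = 0.00036) and 0.57 ± 0.13 in CL6G45 (0.00207), where the arrays read 5.62, 5.93, 6.09, 6.15 and 6.16 and the lowest of them was within the P19CL6 range. In CL6G26 (0.13 ± 0.13) and CL6G52 (0.06 ± 0.13) Atf6 was not called. Both other tested Atf6 probe sets, on MOE430B and above the floor on 9 and 22 arrays, were called in no subline. They differed by 0.61 and 1.32 in CL6G36 (limma adjusted p = 0.558 and 0.0554) and by 0.70 and 1.02 in CL6G45 (0.465 and 0.187).

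**Figure D3:**
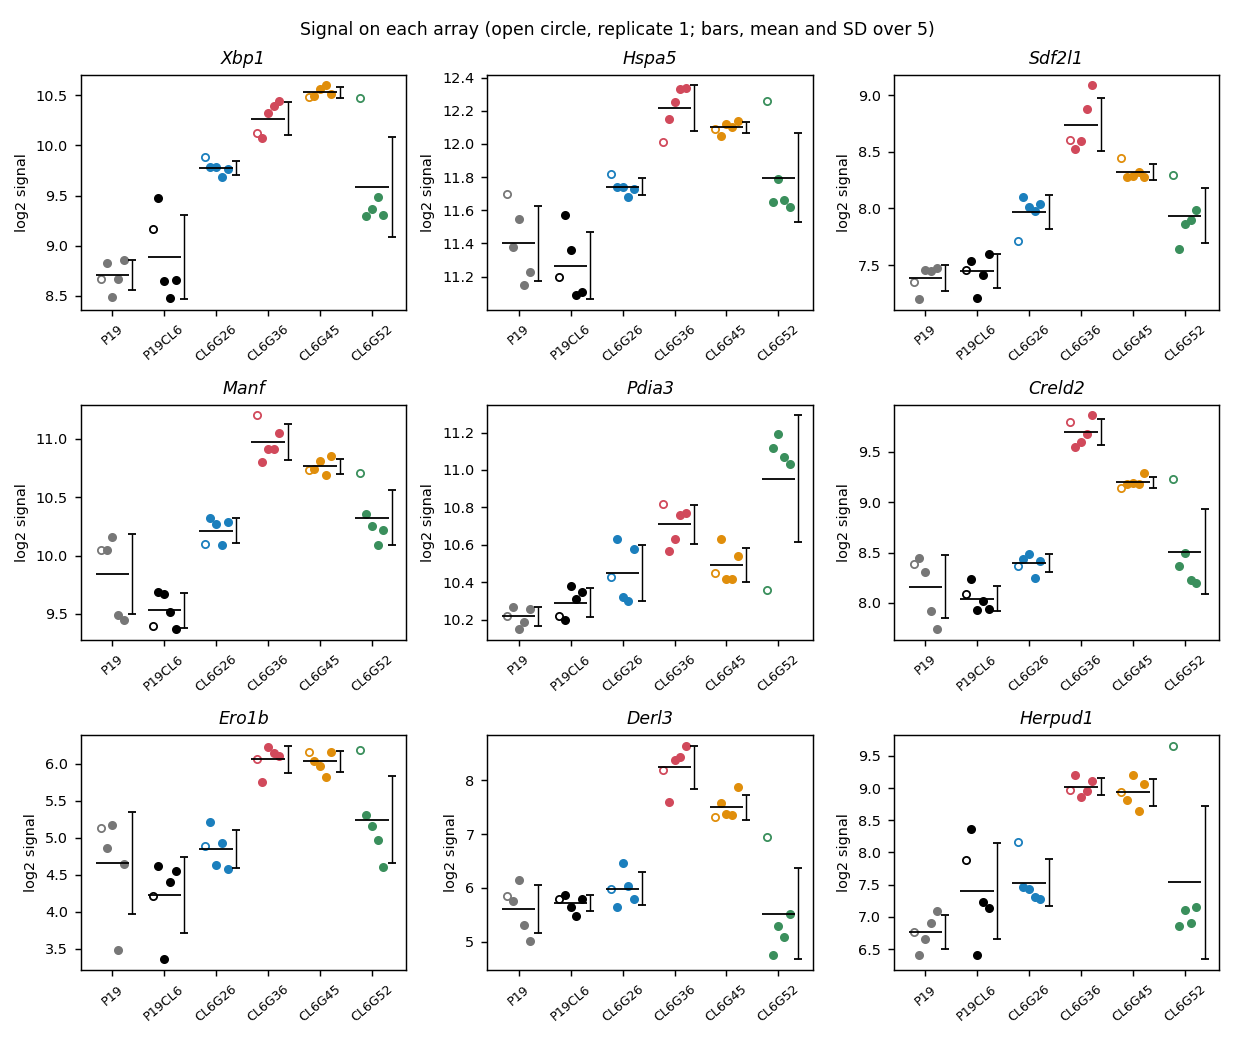
Log2 signal on each array for 9 members in the 6 strains; horizontal lines are means, error bars SD over 5 arrays, and the open circle is replicate 1. For Xbp1, Creld2, Ero1b, Derl3 and Herpud1 the open circle of CL6G52 lies above the other 4 CL6G52 arrays, and for Pdia3 below them.

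Of the 11 chaperones and cochaperones, 9 rose in CL6G36 (6.83% of all genes rose), 8 in CL6G45 (6.55%), 5 in CL6G26 (0.417%) and 4 in CL6G52 (1.38%). Hspa5 encodes BiP, the Hsp70 of the lumen. Its P19CL6 arrays read 11.20, 11.57, 11.36, 11.09 and 11.11. CL6G26 read 11.82, 11.74, 11.74, 11.68 and 11.73, and CL6G36 read 12.01, 12.15, 12.25, 12.33 and 12.34. CL6G45 read 12.09, 12.05, 12.12, 12.10 and 12.14, and CL6G52 read 12.26, 11.65, 11.79, 11.66 and 11.62. No subline array overlapped P19CL6, and the arrays of CL6G36 and CL6G45 lay above all of CL6G26. In fold terms the rise was 1.39 in CL6G26, 1.93 in CL6G36, 1.78 in CL6G45 and 1.44 in CL6G52, with limma adjusted p of 0.00796, 6.03e-08, 1.12e-06 and 0.00181. A second Hspa5 probe set on MOE430A rose in CL6G36 (1.39), CL6G45 (1.20) and CL6G52 (0.89), and a probe set on MOE430B was called in no subline. P19, at 11.70, 11.38, 11.55, 11.15 and 11.23, overlapped P19CL6.

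Manf, a small secreted protein that binds BiP, had the largest rise of a chaperone in CL6G36. It read 9.40, 9.69, 9.67, 9.52 and 9.37 in P19CL6, 10.10, 10.32, 10.27, 10.09 and 10.29 in CL6G26, and 11.20, 10.80, 10.91, 10.91 and 11.05 in CL6G36. In CL6G45 it read 10.73, 10.74, 10.81, 10.69 and 10.85, and in CL6G52 10.71, 10.36, 10.25, 10.09 and 10.22. No subline overlapped P19CL6, and the rises were 0.68 ± 0.12, 1.44 ± 0.12, 1.24 ± 0.12 and 0.80 ± 0.12 in the order given, with limma adjusted p of 0.000488, 1.36e-10, 1.2e-08 and 3.76e-05. Sdf2l1, a stabilizer of the BiP cochaperone ERdj3, rose by 0.53 ± 0.11 in CL6G26, 1.30 ± 0.11 in CL6G36, 0.88 ± 0.11 in CL6G45 and 0.50 ± 0.11 in CL6G52. Its arrays were at 7.46, 7.54, 7.21, 7.41 and 7.60 in P19CL6 and at 7.71, 8.10, 8.01, 7.98 and 8.04 in CL6G26. They were at 8.61, 8.53, 8.60, 8.88 and 9.09 in CL6G36, at 8.45, 8.28, 8.29, 8.32 and 8.28 in CL6G45, and at 8.30, 7.64, 7.86, 7.90 and 7.99 in CL6G52. All 5 CL6G36 arrays of Sdf2l1 exceeded every array of the other strains. Hsp90b1, the Hsp90 of the lumen, rose by 0.43 ± 0.10, 0.63 ± 0.10, 0.61 ± 0.10 and 0.39 ± 0.10 in the same order. Its P19CL6 arrays (9.70, 9.93, 9.73, 9.66 and 9.69) lay below the lowest of CL6G26 (9.99), CL6G36 (9.97), CL6G45 (10.19) and CL6G52 (9.98).

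The BiP cochaperones of the J family did not all follow the same order. Dnajc3 (p58IPK) read 5.91, 6.45, 5.83, 5.81 and 5.94 in P19CL6, 7.44, 6.78, 7.06, 7.55 and 7.32 in CL6G36, and 7.45, 7.56, 7.32, 7.22 and 7.55 in CL6G45, a rise of 1.24 ± 0.17 (limma adjusted p = 2.47e-06) and 1.43 ± 0.17 (4.36e-07) with no overlap. Its rise of 0.64 ± 0.17 in CL6G26 (0.0415) lost the call under 13 of 23 other settings, and CL6G52 (0.55 ± 0.17, 0.054) missed the threshold; without P19CL6 replicates 1 and 2 the latter was 0.67 ± 0.19 and called (0.0365). Dnajb9 (ERdj4) rose more in CL6G45, from 6.76 ± 0.30 in P19CL6 to 7.83 ± 0.11, than in CL6G36 (7.33 ± 0.05), and the pair differed by 0.50 ± 0.14 (adjusted p = 0.0297). Dnajb11 (ERdj3) rose in CL6G36 alone among the sublines, by 0.97 ± 0.15 (1.81e-05), and was lower in CL6G45 than in CL6G36 by 0.68 (adjusted p = 0.00507). The exchange factor Hyou1 rose by 0.50 ± 0.08 in CL6G36 and 0.44 ± 0.08 in CL6G45, and the lectin chaperone Calr by 0.57 ± 0.10 and 0.66 ± 0.10. Canx, the membrane-bound lectin chaperone, stayed between 10.58 and 10.99 on all 20 subline arrays and was called in no subline (0.03 ± 0.08 in CL6G36), although 1 of its 4 tested probe sets rose there (0.39, adjusted p = 0.0388).

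Sil1, another BiP exchange factor, was the member that fell in a subline. It read 4.45, 4.90, 4.57, 4.59 and 3.35 in P19CL6 and 3.92, 2.11, 3.36, 2.62 and 3.22 in CL6G45, a difference of -1.33 ± 0.37 (limma adjusted p = 0.012) with overlapping arrays. All CL6G45 values were under the floor of 4.61, as were 4 of 5 in P19CL6. With signals raised to the floor the difference was -0.06 and the call was lost, as it was on the deposited scale and without P19CL6 replicates 1 and 2.

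Of the 8 disulfide enzymes, 7 rose in CL6G36 (6.83% of all genes rose), 6 in CL6G45 (6.55%), 4 in CL6G52 (1.38%) and 2 in CL6G26 (0.417%). Creld2, a stress-inducible protein that works with disulfide isomerases, read 8.09, 8.24, 7.93, 8.02 and 7.94 in P19CL6, 8.37, 8.44, 8.49, 8.25 and 8.42 in CL6G26, and 9.79, 9.55, 9.60, 9.68 and 9.86 in CL6G36. CL6G45 read 9.14, 9.18, 9.19, 9.18 and 9.29, and CL6G52 read 9.23, 8.37, 8.50, 8.23 and 8.20. The CL6G36 arrays stood above all others, the CL6G45 arrays next, and CL6G52 replicate 1 within the CL6G45 range. Creld2 rose 3.14-fold in CL6G36 (limma adjusted p = 2.44e-10) and 2.22-fold in CL6G45 (6.26e-07). Its call in CL6G52 (0.46 ± 0.14, 0.0466) was lost without replicate 1, where the difference was 0.28, and in 13 of 22 other settings in all.

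Ero1b, an oxidase that recharges the disulfide isomerases, read 4.21, 4.62, 3.36, 4.41 and 4.55 in P19CL6, where 1 of 5 arrays passed the floor. It read 6.06, 5.75, 6.23, 6.15 and 6.11 in CL6G36 and 6.16, 6.04, 5.97, 5.82 and 6.16 in CL6G45, all above the floor and above every P19CL6 array. With signals raised to the floor it rose by 1.44 in CL6G36 (limma adjusted p = 8.81e-07) and by 1.42 in CL6G45 (1.93e-06). CL6G52 read 6.19, 5.31, 5.16, 4.97 and 4.60, with replicate 1 the highest and replicate 5 below the top of P19CL6; its rise of 1.02 ± 0.27 (0.0245) was 0.78 and not called without replicate 1. With signals raised to the floor it was 0.64 (adjusted p = 0.0352), under the 2-fold change counted for it above. In CL6G26 (4.89, 5.22, 4.64, 4.93 and 4.58) Ero1b was not called. Another tested Ero1b probe set, above the floor on 5 arrays, was called in no subline. It differed by 0.42 in CL6G36 (limma adjusted p = 0.361) and 0.52 in CL6G45 (0.239). Ero1a, a relative of Ero1b, read 9.40, 9.45, 9.29, 9.07 and 9.01 in P19CL6, 9.73, 9.97, 9.85, 9.67 and 9.82 in CL6G36, and 9.77, 9.64, 9.74, 9.88 and 9.94 in CL6G45, with no overlap. The Ero1a calls in CL6G36 (0.56 ± 0.19, adjusted p = 0.0381) and CL6G45 (0.55 ± 0.19, 0.0469) were lost in 12 and 14 of 23 other settings.

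Pdia6 rose in every subline, from 9.13, 9.23, 9.18, 9.23 and 9.45 in P19CL6 to 9.62, 9.69, 9.73, 9.63 and 9.71 in CL6G26. CL6G36 read 10.19, 9.89, 10.15, 10.25 and 10.43, CL6G45 9.95, 9.91, 9.96, 9.88 and 10.04, and CL6G52 10.11, 9.85, 9.73, 9.72 and 9.96. No subline array of this isomerase overlapped P19CL6, and the rises were 0.43, 0.94, 0.70 and 0.63, each ± 0.08, with limma adjusted p of 0.00172, 5.08e-10, 3.51e-07 and 5.48e-06. A second, dimmer Pdia6 probe set, above the floor on 14 arrays, was called in no subline, and the mean of both was not called in CL6G26, CL6G45 or CL6G52. Pdia4 (ERp72) rose 2.04-fold in CL6G36 and 1.83-fold in CL6G45, and P4hb, the classical isomerase, rose by 0.35 ± 0.08 in CL6G26, 0.52 ± 0.08 in CL6G36 and 0.33 ± 0.08 in CL6G45. Without P19CL6 replicates 1 and 2 the P4hb difference in CL6G26 was 0.31 ± 0.09 and not called (limma adjusted p = 0.092). Dnajc10, a reductase that helps prepare chains for degradation, was called in no subline and lay between -0.07 and 0.07 of P19CL6.

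Pdia3 (ERp57), the isomerase that partners calnexin and calreticulin, had an order of its own. P19CL6 read 10.22, 10.20, 10.38, 10.31 and 10.35, and CL6G52 read 10.36, 11.12, 11.19, 11.07 and 11.03. CL6G36 read 10.82, 10.57, 10.63, 10.76 and 10.77, CL6G45 10.45, 10.63, 10.42, 10.42 and 10.54, and CL6G26 10.43, 10.63, 10.32, 10.30 and 10.58. CL6G52 replicates 2 to 5 exceeded every array of the other 5 strains, while replicate 1 lay within the P19CL6 range. Pdia3 rose by 0.66 ± 0.10 in CL6G52 (limma adjusted p = 5.15e-05), by 0.81 ± 0.07 without its replicate 1 (5.95e-10), and by 0.42 ± 0.10 in CL6G36 (0.00281). It was also higher in CL6G52 than in CL6G26, by 0.51 ± 0.10 (0.00131), and without replicate 1 higher than in CL6G36 by 0.39 ± 0.07 (4.47e-05) and than in CL6G45 by 0.61 ± 0.07 (6.09e-08). Its other tested probe set, on MOE430B and above the floor on 23 arrays, was called in no subline (0.47 in CL6G52, adjusted p = 0.566).

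Of the 9 degradation genes, 6 rose in CL6G36 (6.83% of all genes rose) and in CL6G45 (6.55%). None was called in CL6G26 or CL6G52 on the probe set read, near the shares of all genes called there (1.24% and 3.18%). Derl3, a derlin of the channel through which misfolded chains leave, had the largest difference of any member. It read 5.80, 5.87, 5.65, 5.48 and 5.79 in P19CL6, 8.19, 7.59, 8.37, 8.44 and 8.64 in CL6G36, and 7.32, 7.58, 7.37, 7.36 and 7.87 in CL6G45. CL6G26 read 5.97, 5.65, 6.47, 6.04 and 5.80, and CL6G52 read 6.95, 4.75, 5.29, 5.09 and 5.51. The CL6G36 and CL6G45 arrays lay above all arrays of the other strains, CL6G52 replicate 1 lay between, and of CL6G52 replicates 2 to 5, the highest (5.51) was just inside the P19CL6 range and the others under it. Derl3 rose 5.76-fold in CL6G36 (limma adjusted p = 2.75e-08) and 3.43-fold in CL6G45 (1.55e-05), and the difference of CL6G52 was -0.20 ± 0.26. Its relatives differed: Derl1 rose by 0.40 ± 0.11 and 0.38 ± 0.11 in CL6G36 and CL6G45, and Derl2 (0.16 ± 0.12 and 0.24 ± 0.12) was not called. The CL6G45 rise of Derl1 rests on the probe set read. No other Derl1 probe set was called there, with differences from 0.16 to 0.24.

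Herpud1, a scaffold of the HRD1 ligase complex with ERSE-II and CARE in the promoter printed above, varied most between arrays of 1 label. It read 7.89, 8.36, 6.40, 7.23 and 7.13 in P19CL6, and 9.66, 6.86, 7.10, 6.90 and 7.15 in CL6G52. CL6G26 read 8.17, 7.47, 7.43, 7.31 and 7.27, CL6G36 8.97, 9.20, 8.86, 8.96 and 9.11, and CL6G45 8.94, 8.82, 9.20, 8.65 and 9.06. CL6G52 replicate 1 was the highest of all 30 arrays, the P19CL6 pair that lay apart exceeded the other 3, and the CL6G36 and CL6G45 arrays lay above every other array but that of CL6G52 replicate 1. Herpud1 rose by 1.62 ± 0.35 in CL6G36 (limma adjusted p = 0.00117) and by 1.53 ± 0.35 in CL6G45 (0.00221), and over the other settings these differences ran from 1.37 to 2.10 and from 1.28 to 2.01. In CL6G52 the difference was 0.13 ± 0.35, and -0.40 without replicate 1, called in neither case.

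The ligase Syvn1 (HRD1) rose by 0.83 ± 0.10 in CL6G36 and 0.84 ± 0.10 in CL6G45 (limma adjusted p = 5.26e-07 and 8.17e-07), from 7.55 ± 0.16 in P19CL6, and its MOE430B probe set rose by 0.92 and 0.83. Its adaptor Sel1l rose by 0.71 ± 0.13 in CL6G36; the 0.36 ± 0.13 in CL6G45 lost its call in 12 of 23 other settings, among them without P19CL6 replicates 1 and 2 (0.40, adjusted p = 0.069), although 3 of its other 4 probe sets, 1 of them on MOE430B, rose there too, and 1 of these (0.85, adjusted p = 0.000239) rose in CL6G52. Edem1, which marks glycoproteins for disposal by trimming mannose, rose by 0.63 ± 0.13 and 0.62 ± 0.13 in the same sublines, and a second probe set (0.34 and 0.31) was not called. Edem2 and the lectin Os9 were called in no subline, with differences from -0.33 to 0.20.

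Of the 5 translocation genes, 3 rose in CL6G36 (6.83% of all genes rose), 1 in CL6G45 (6.55%), 1 in CL6G52 (1.38%) and none in CL6G26 (0.417%). Spcs2, a subunit of the signal peptidase, rose in CL6G36 (0.66 ± 0.07), CL6G45 (0.59 ± 0.07) and CL6G52 (0.33 ± 0.07). Its P19CL6 arrays (9.40, 9.61, 9.51, 9.43 and 9.34) lay below all of CL6G52 (10.06, 9.70, 9.78, 9.70 and 9.69), and without replicate 1 the CL6G52 rise was 0.26 ± 0.07 (limma adjusted p = 0.0187). A second Spcs2 probe set, above the floor on all 30 arrays, rose in CL6G36 (0.52) and CL6G45 (0.56). In CL6G52 that probe set was not called (0.11, limma adjusted p = 0.621). Sec61a1, the channel subunit of the translocon, rose in CL6G36 (0.61 ± 0.09, 5.75e-06) and was not called in CL6G45 (0.20 ± 0.09, 0.112); the pair differed by 0.41 (adjusted p = 0.00372). All 6 of its probe sets rose in CL6G36, 3 dimmer ones rose in CL6G26, and 1 of the others rose in CL6G45 (0.31, adjusted p = 0.0101). Sec61b rose by 0.23 ± 0.07 in CL6G36 and lost the call in 4 of 23 other settings, among them without P19CL6 replicates 1 and 2 (0.20, 0.0951). Ssr1 and Tram1 were called in no subline, with differences between -0.05 and 0.13. The calcium-binding Nucb2 (0.74 ± 0.29 in CL6G36, 0.077), above the floor on 18 of 30 arrays, and the ubiquitin-like modifier Ufm1 (-0.11 ± 0.14) were not called either.

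**Figure D4:**
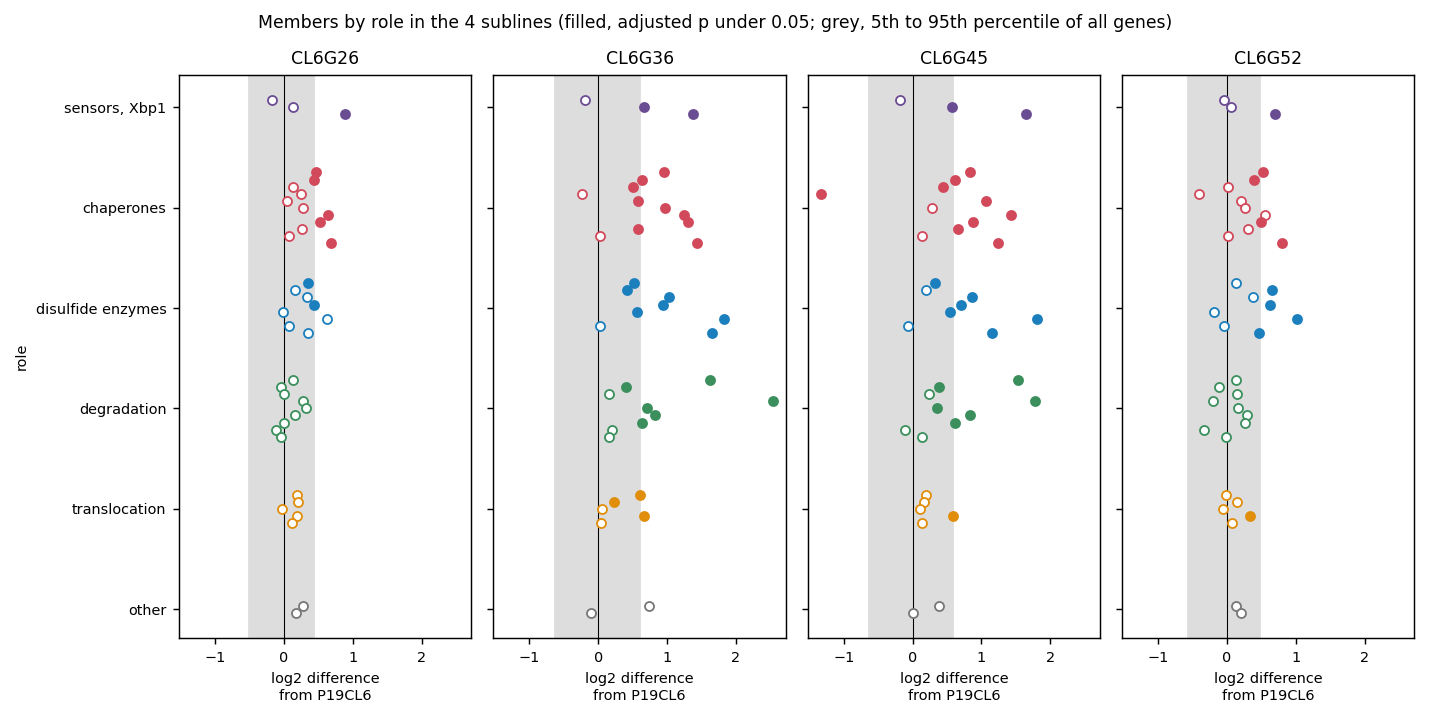
Log2 difference of each subline from P19CL6 for each member, by role; filled points had an adjusted p under 0.05 and the grey band spans the 5th to 95th percentile of all 13181 genes. In CL6G36 that band runs from -0.63 to 0.60, and Derl3 lies at 2.53.

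The 4 sublines were also compared among themselves. In the moderated F test 26 of the 38 members differed, where 23.2% of all genes did: 2 of 3 sensing genes, 9 of 11 chaperones, 7 of 8 disulfide enzymes, 6 of 9 degradation genes and 2 of 5 translocation genes. The members with the widest range of subline means were Derl3, Sil1, Herpud1, Creld2 and Ero1b, with Sil1 mostly under the floor. CL6G36 exceeded CL6G26 in 23 members and was lower in none (14.1% of all genes called, 7.67% higher and 6.41% lower). CL6G45 exceeded CL6G26 in 20 and was lower in 1, Sil1 (13.2%, with 7.14% higher and 6.11% lower). Derl3 was 4.79-fold higher in CL6G36 than in CL6G26 (limma adjusted p = 2.29e-07), Herpud1 2.80-fold (0.00262), Creld2 2.46-fold (3.91e-08) and Ero1b 2.31-fold (0.00162).

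Between CL6G36 and CL6G45, 5 members differed, where 3% of all genes did, 1.37% higher and 1.63% lower in CL6G45. Dnajb9 was higher in CL6G45, and Dnajb11, Sec61a1, Sdf2l1 and Creld2 were lower there, by 0.68, 0.41, 0.42 and 0.50, with no overlap between the arrays. Derl3 (-0.75 ± 0.26, limma adjusted p = 0.111) and Xbp1 (0.26 ± 0.16, 0.427) were not called between them. CL6G52 was lower than CL6G36 in 22 members and higher in none (13.1% of all genes called, 5.68% higher and 7.46% lower). It was lower than CL6G45 in 18 and higher in 1, Pdia3 (11.1%, with 5.15% higher and 5.91% lower). Without CL6G52 replicate 1 these counts became 23 lower and 2 higher (17.6%), and 20 lower and 1 higher (16.2%). Against CL6G26, CL6G52 was higher in Pdia3 alone (4.31% of all genes called, 2.28% higher and 2.03% lower). Without replicate 1, Pdia3 was higher and Xbp1, P4hb and Derl3 were lower, by 0.41, 0.27 and 0.83 (6.08%).

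Of 14 other stress genes, among them the PERK branch and all tested, 8 rose in CL6G36 (6.83% of all genes rose) and 9 in CL6G45 (6.55%), and none fell. None was called in CL6G26 or CL6G52, near the shares of all genes called there (1.24% and 3.18%). Ddit3, which encodes CHOP, had 5.85, 7.09, 4.27, 4.68 and 4.86 in P19CL6 and 8.77, 8.34, 8.45, 8.57 and 8.95 in CL6G36. CL6G45 had 8.39, 7.97, 8.29, 8.07 and 7.88, CL6G52 had 8.01, 2.62, 5.06, 4.88 and 5.07, and CL6G26 had 6.0, 5.77, 5.64, 5.66 and 4.72. CL6G52 replicate 1 and P19CL6 replicates 1 and 2 lay high in Ddit3 as in Herpud1, and CL6G36 and CL6G45 exceeded P19CL6 without overlap. Ddit3 rose by 3.27 ± 0.53 in CL6G36 (limma adjusted p = 4.55e-05) and 2.77 ± 0.53 in CL6G45 (0.000426). Trib3, a pseudokinase gene known as a CHOP target, rose by 1.59 ± 0.27 and 1.43 ± 0.27, Ppp1r15a (GADD34), which restores translation, by 0.94 ± 0.17 and 0.95 ± 0.17, and Atf4 by 0.48 ± 0.10 and 0.45 ± 0.10. Without P19CL6 replicates 1 and 2, Ddit3 rose by 4.01 ± 0.56 in CL6G36 (limma adjusted p = 7.89e-06) and 3.52 ± 0.56 in CL6G45 (5.77e-05). The remaining P19CL6 arrays (4.27, 4.68 and 4.86) lay near the floor of 4.61, so the size of these rises is limited by signal over background. Of the 14, 7 rose in CL6G36 without those 2 replicates (5.92% of all genes rose), 9 in CL6G45 (5.88%) and Wfs1 alone in CL6G26 (0.478%) and in CL6G52 (1.18%). Without CL6G52 replicate 1, none of the 14 was called in CL6G52, where 4.89% of all genes were. Ddit3 then differed there by -0.94 ± 0.42 (limma adjusted p = 0.186), with CL6G52 replicate 2 under the floor at 2.62.

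Of 103 tested genes of the wider pathway out of 113 listed, the stress genes included, 33 rose and 3 fell in CL6G36, with a median of 0.13 against 0.62 for the members. In CL6G45 28 rose and 5 fell, in CL6G52 2 rose (Selenos and Ssr3) and 1 fell (Man1b1), and in CL6G26 none was called. Among all genes, 6.83% rose and 6.72% fell in CL6G36, and 6.55% and 6.71% in CL6G45. In CL6G52 2.91% of the 103 were called, near the 3.18% of all genes, and in CL6G26 1.24% of all genes were. Ssr3 was not called in CL6G52 without its replicate 1 (0.22, limma adjusted p = 0.0686) or without P19CL6 replicates 1 and 2 (0.27, 0.0624). By group in CL6G36, 10 of 26 further targeting and translocation factors rose and 2 fell, 6 of 26 further degradation factors rose, 5 of 24 further folding factors rose and 1 fell, and 4 of 13 retrieval and export genes rose. Sec24d, a coat protein of export vesicles, rose by 0.97 ± 0.12 in CL6G36 (limma adjusted p = 1.02e-06) and 0.73 ± 0.12 in CL6G45 (9.55e-05), and Sec11c, a catalytic subunit of the signal peptidase, by 0.90 ± 0.25 (0.0123) and 0.87 ± 0.25 (0.0165). Dad1, a subunit of the oligosaccharyltransferase, fell by 0.49 ± 0.12 and 0.77 ± 0.12 on the log2 scale (0.00339 and 2.35e-05). Among markers of other cells, none of the endoderm list rose in CL6G36 or CL6G45; 2 fell in the former and 4 in the latter. Among the pluripotency markers Nanog fell by 1.10 and 1.02, Tdgf1 by 0.37 and 0.35, and Utf1 rose by 0.55 and 0.68. Dnmt3b rose by 0.38 in CL6G45 (limma adjusted p = 0.00797). In CL6G52, Nanog fell by 0.66 (0.000575) and Tdgf1 by 0.54 (0.00177). The part of cell state in the members' values was not tested.

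P19CL6 differed from P19 in 3 of the 38 members, where 4.46% of all genes were called, 2.57% higher and 1.89% lower: Ero1a (0.81 ± 0.19, limma adjusted p = 0.0149) and Canx (0.29 ± 0.08, 0.0238) were higher and Edem1 (-0.52 ± 0.13, 0.0207) lower. The median of the members was 0.01, equal to that of all genes. No member differed 2-fold (0.652% of all genes did), and none had all 5 arrays above those of P19 (1.01%). Ero1a read 7.91, 7.85, 8.05, 9.14 and 9.22 in P19, so that replicates 4 and 5 lay within the P19CL6 range of 9.01 to 9.45 and replicates 1 to 3 below it. Without P19 replicates 4 and 5, 13 members were called, 5 higher and 8 lower, where 19.6% of all genes were. Ero1a was then higher by 1.31 ± 0.13 (9.81e-09), Edem2 by 0.60 ± 0.19 (0.0235), Canx and Derl1 by 0.42 each and Dnajc10 by 0.29. Ero1b was lower by 0.82, Edem1 by 0.69, Ufm1 by 0.59, Manf by 0.56, Derl2 by 0.44, P4hb by 0.39, Calr by 0.34 and Hyou1 by 0.24. Without P19 replicate 1, 2 or 3, or without P19CL6 replicates 1 and 2, no member was called, where 0.0759% of all genes were in the last case.

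**Figure D5:**
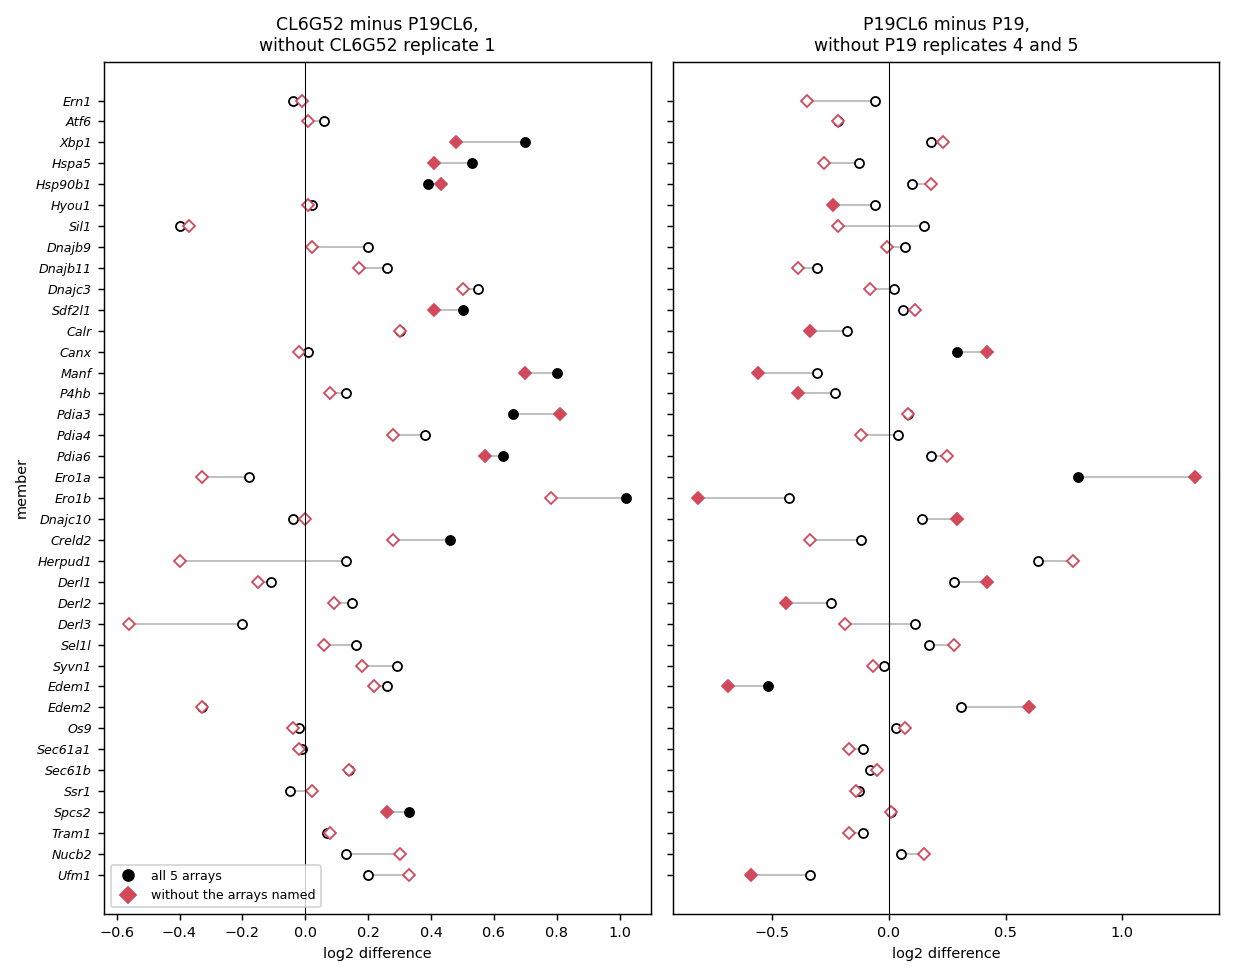
Log2 difference of each member with all 5 arrays (circles) and without the arrays named above each panel (diamonds); filled symbols had an adjusted p under 0.05. Left, CL6G52 minus P19CL6, where Herpud1 moves from 0.13 to -0.40; right, P19CL6 minus P19, where Ero1a moves from 0.81 to 1.31.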

How the data were processed

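The 60 arrays were Affymetrix MOE430A and MOE430B, 5 of each type per strain. The deposited values are linear intensities per probe set; GCOS is named in the submitters' processing notes, without a version or a scaling target. Signals under 1 were set to 1, arrays of a type were quantile normalized because the deposited scaling differed between arrays, and log2 was taken. Control probe sets were left out, and genes were named from probe sets with 1 gene symbol in the platform annotation. A probe set was tested if above the floor, the 40th percentile on MOE430A and the 60th on MOE430B, on at least 5 of 30 arrays. This left 15068 and 12131 probe sets. A gene was read from its brightest probe set, on MOE430A where both types had one. limma 3.58.1 in R 4.3.3 fitted a group-means model over the 30 arrays of a type, with eBayes and a trend, 24 residual degrees of freedom and Benjamini-Hochberg adjustment within the type; tests were two-sided, and the script was tested on simulated data. Levels are means ± SD and differences ± SE of the fit.

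The members, gene lists, tests and alternatives were chosen with earlier results of these data known. Array by array values are given for called members without overlap (the 6 largest per comparison and direction), for Hspa5, Xbp1, Ern1 and Atf6, and for the 5 with the widest range of subline means; other members so shown (Ero1a, Pdia3) were picked after their values were seen. Of the wider pathway, up to 4 called genes with the largest change per comparison were to be named; Atf4, Selenos, Ssr3, Man1b1 and Dad1 were added, as were the markers Nanog, Tdgf1, Utf1 and Dnmt3b. Promoter sequences are RefSeq's. No 2 deposited columns were identical. Replicate numbers did not pair the arrays.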

Additional observations from a re-analysis of the deposited data

Results flagged for a closer look

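Among 15 of the members described array by array, 90 groups of 5 arrays were examined for 1 array far from the other 4. Such an array was found in 12, that is 13.3%. Ero1a and Pdia3 were not among the 15. The rule flags about 1 in 20 independent groups. These groups share arrays, and the members were picked from these data, so the 13.3% cannot be set against that rate. CL6G52 replicate 1 was such an array, and high, in 5 groups: Xbp1 at 10.47 (others 9.30 to 9.49), Hspa5 at 12.26 (11.62 to 11.79), Creld2 at 9.23 (8.20 to 8.50), Herpud1 at 9.66 (6.86 to 7.15) and Spcs2 at 10.06 (9.69 to 9.78). In Pdia3, which was not examined by the rule, it lay below the other 4 CL6G52 arrays. P19CL6 replicate 2 was high in Dnajc3 at 6.45 (5.81 to 5.94) and Hsp90b1 at 9.93 (9.66 to 9.73). CL6G26 replicate 1 was high in Herpud1 at 8.17 (7.27 to 7.47), and CL6G45 replicate 1 in Sdf2l1 at 8.45 (8.28 to 8.32). Sil1, near or under the floor, was low in P19 replicate 5 at 2.76 (4.48 to 4.79) and in P19CL6 replicate 5 at 3.35 (4.45 to 4.90), and high in CL6G52 replicate 3 at 4.42 (3.76 to 3.91).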

How the results depend on the processing

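Counts of called members stayed within 1.5 times those reported under 75th percentile scaling, both other filters, signals raised to the floor, mean probe sets, eBayes without a trend and the replicate block. On the deposited scaling the counts were 0 for P19CL6 against P19, 4 for CL6G26, 16 for CL6G36, 3 for CL6G52 and 11 for the F test; in CL6G45 it was 17. Where every probe set had to be called, CL6G26 had 4, CL6G36 17, CL6G52 4 and the F test 15, with no share of all genes given. With a 2-fold limit the counts were 0, 0, 9, 9, 1 and 6 in the order P19CL6 against P19, CL6G26, CL6G36, CL6G45, CL6G52 and F test; the limit itself removes smaller changes. P19CL6 against P19 gave 10 with array weights and 0 in a fit of these strains alone. It gave 0 without P19CL6 replicates 1 and 2 (0.0759% of all genes called) and 13 without P19 replicates 4 and 5 (19.6%). The cause was not tested. For array weights, the fit of these strains alone and single replicates left out, the share of all genes called is not given. Those counts of P19CL6 against P19 are therefore not set against all genes. Leaving out 1 replicate at a time gave 0 to 8 there (0 without P19 replicate 1, 2 or 3, 8 without replicate 4 and 6 without replicate 5), 6 to 8 for CL6G26, 26 to 27 for CL6G36, 22 to 24 for CL6G45, 8 to 11 for CL6G52 and 26 to 27 for the F test. With the replicate block the counts were 3, 7, 26, 23, 10 and 26 in the same order. Arrays with the same number did not deviate together: correlations of their deviations ran from -0.10 to 0.08, and at most 2 of 5 arrays correlated best with their own number. No named difference that was called changed sign. Members near the floor (Sil1, Ero1b, Nucb2) are limited by signal over background.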
